A study of Mus musculus with 35 samples.

Results

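The 32 immediate early genes described here were fixed as a list of names and cover 6 AP-1 subunits (Fos, Fosb, Fosl2, Jun, Junb and Jund), 3 other basic leucine zipper (bZIP) factors (Atf3, Maff and Crem), and 3 members each of the EGR, NR4A and KLF families. The list also holds 8 genes of feedback and mRNA decay (Dusp1, Zfp36, Btg1, Btg2, Nfkbia, Nfkbiz, Gadd45b and Ppp1r15a) and 6 further genes (Ier2, Ier3, Ier5, Rhob, Csrnp1 and Per1). All 32 were found among the 19938 genes that the arrays name, each through 1 transcript cluster, and all 32 were above the filter on low values in every fit. They were measured on 35 Affymetrix arrays of type 1 conventional dendritic cells (cDC1), sorted by flow cytometry from mouse spleen.

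The series compared cDC1 lacking Mycl, the MYC family factor of dendritic cells, or Mxd1, a MAX partner that represses MYC target genes, with control cells. At steady state, set 1 held 5 heterozygous arrays (MyclGFP/+) and 4 Mycl KO arrays (MyclGFP/GFP), and set 2 held 5 wild-type (WT; Mycl+/+) and 5 Mycl KO arrays (MyclGFP/GFP). Set 3 held 5 WT and 5 Mycl KO arrays of the same genotypes, from mice killed 5 h after an intraperitoneal injection of 100 µg poly IC, a synthetic RNA duplex that induces interferon. The Mxd1 set held 3 WT (Mxd1+/+) and 3 arrays labelled Mxd1 KO (Mxd1-/-), taken 18 h after the same dose. The age of the mice is not given in the labels, and the labels call the arrays biological replicates without saying that each is a separate mouse, so the p-values measure the spread between these arrays.

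Immediate early genes are transcribed within minutes of a stimulus, without new protein synthesis, through factors that are already present in the cell. AP-1 subunits pair through their leucine zippers and bind DNA, EGR, NR4A and KLF proteins are zinc finger or nuclear receptor factors, and several other members switch the response off again: Dusp1 dephosphorylates MAP kinases, Zfp36 and the BTG proteins speed mRNA decay, and Nfkbia holds NF-kappaB in the cytoplasm. Enzymatic digestion of a tissue induces many of these genes, so in sorted cells they are also known as dissociation response genes. For all 35 arrays the labels give 1 protocol, in which spleens were stirred for 30 min at 37 °C with collagenase and DNase. No group was taken without that step, so expression in the animal and expression set off during digestion cannot be told apart in the level of any member.

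Promoter stretches are shown for the 6 members that passed a test in at least 1 comparison and for which a promoter window was available. They allow the elements near the start sites to be compared. Each is the 250 bases before 1 annotated start (GRCm38.p6), written 5′ to 3′ on the gene's strand, and capitals mark matches on either strand to TGACGTCA (the cAMP response element), CACGTG (the E-box that MYC and MAX proteins bind), GCGNGGGCG (the EGR element) or a kappaB site.
Junb, chr8:84978749-84978998, minus strand: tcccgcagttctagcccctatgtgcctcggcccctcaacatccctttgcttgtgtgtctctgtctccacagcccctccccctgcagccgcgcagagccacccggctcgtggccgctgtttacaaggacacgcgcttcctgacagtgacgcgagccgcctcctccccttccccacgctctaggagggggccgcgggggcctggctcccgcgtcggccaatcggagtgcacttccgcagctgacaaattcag
Btg2, chr1:134079156-134079405, minus strand: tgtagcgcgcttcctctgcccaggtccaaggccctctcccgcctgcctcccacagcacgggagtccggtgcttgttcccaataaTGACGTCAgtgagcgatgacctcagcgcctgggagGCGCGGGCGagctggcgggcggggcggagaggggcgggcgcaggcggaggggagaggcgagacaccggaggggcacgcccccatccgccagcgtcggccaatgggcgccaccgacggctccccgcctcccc
Dusp1, chr17:26508473-26508722, minus strand: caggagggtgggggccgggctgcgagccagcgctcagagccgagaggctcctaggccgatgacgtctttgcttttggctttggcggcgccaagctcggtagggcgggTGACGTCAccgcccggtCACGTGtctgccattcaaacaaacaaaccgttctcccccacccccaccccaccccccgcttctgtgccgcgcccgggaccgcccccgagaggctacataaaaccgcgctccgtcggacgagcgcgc
Nfkbia, chr12:55492648-55492897, minus strand: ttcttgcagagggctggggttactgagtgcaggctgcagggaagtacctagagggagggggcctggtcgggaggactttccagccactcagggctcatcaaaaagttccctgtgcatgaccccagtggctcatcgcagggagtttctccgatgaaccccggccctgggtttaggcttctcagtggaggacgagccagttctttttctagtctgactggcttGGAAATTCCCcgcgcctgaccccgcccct
Gadd45b, chr10:80929841-80930090, plus strand: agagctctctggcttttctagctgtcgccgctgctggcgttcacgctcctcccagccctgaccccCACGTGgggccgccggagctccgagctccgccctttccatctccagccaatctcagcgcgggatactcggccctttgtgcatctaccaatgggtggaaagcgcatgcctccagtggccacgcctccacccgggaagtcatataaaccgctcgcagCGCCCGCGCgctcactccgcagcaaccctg
Ier3, chr17:35821463-35821712, plus strand: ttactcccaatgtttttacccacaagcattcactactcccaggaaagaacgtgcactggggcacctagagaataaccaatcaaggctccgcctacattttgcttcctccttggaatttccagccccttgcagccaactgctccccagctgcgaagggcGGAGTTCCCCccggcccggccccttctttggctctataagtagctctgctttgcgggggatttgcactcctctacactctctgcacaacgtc
In the Btg2 stretch a cAMP response element and an EGR element lie 166 to 159 and 131 to 123 bases before the start. In Dusp1 a cAMP response element (143 to 136) stands next to an E-box (126 to 121). Gadd45b has an E-box at 185 to 180 and an EGR element at 30 to 22 bases before the start, and Nfkbia and Ier3 each have 1 kappaB site, at 29 to 20 and 92 to 83. The Junb stretch holds none of the 4. Of the 32 members, 27 had at least 1 such window, and Ier2, Crem, Nfkbiz, Egr3 and Egr1 had none. Some genes had several annotated starts (32851 windows over all genes), and a gene was counted if any of its windows held a match. TGACGTCA stood in 4 of them (Maff, Dusp1, Btg2 and Ppp1r15a), against 1.77% of 27025 genes. CACGTG stood in 7, against 6.86% of genes, GCGNGGGCG in 10, against 5.33%, and a kappaB site in 6, against 4.46%. The AP-1 element TGANTCA stood in 1 member, Csrnp1 (7.82% of genes), and the CArG box of serum response factor in 2, Egr2 and Zfp36 (1.62%). A match to TGACGTCA is not a match to TGANTCA. A match is a description of the letters, and a stretch without one says only that these letters are not in this window.

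The targeted gene was checked in each set. In Mycl KO cells Mycl fell by 2.88 in set 1 (log2; 6.78 to 7.11 in KO against 9.65 to 9.93 in heterozygous cells) and fell by 4.03 in set 2 (5.51 to 5.80 against 9.55 to 9.79). In set 3, the library labelled KO array 3 had 8.87 and the other 4 KO arrays 5.52 to 6.14, against 9.03 to 9.81 in WT, so its Mycl level goes against its label; whether it holds the labelled genotype was not tested, and it is counted among the KO arrays unless said otherwise. Mxd1 differed by only -0.31 ± 0.11 (SE; limma adjusted p = 0.260) in the Mxd1 set, which does not bear out the KO label, and where its probes lie against the deleted part is not given, so these are called libraries labelled Mxd1 KO. All 18 cDC1 markers were above the filter level on every array. So were 8 to 9 of 9 markers of plasmacytoid dendritic cells and 7 to 9 of 12 of type 2 conventional dendritic cells. For monocytes and macrophages they numbered 10 to 13 of 16, and for stroma and endothelium 6 to 9 of 10. The markers above it were 3 to 6 of 7 for erythroid cells and platelets and 2 to 6 of 10 for neutrophils. For B cells they were 6 of 10, and for T and NK cells 6 to 9 of 13. The 4 sets were normalized separately, so tests stayed within sets. Values are log2 levels after RMA, an array normalization, and differences are KO minus control, so each is a shift against the remaining genes on the same array. In such bulk samples, fewer cells of a type and less RNA per cell cannot be told apart.

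**Figure D1:**
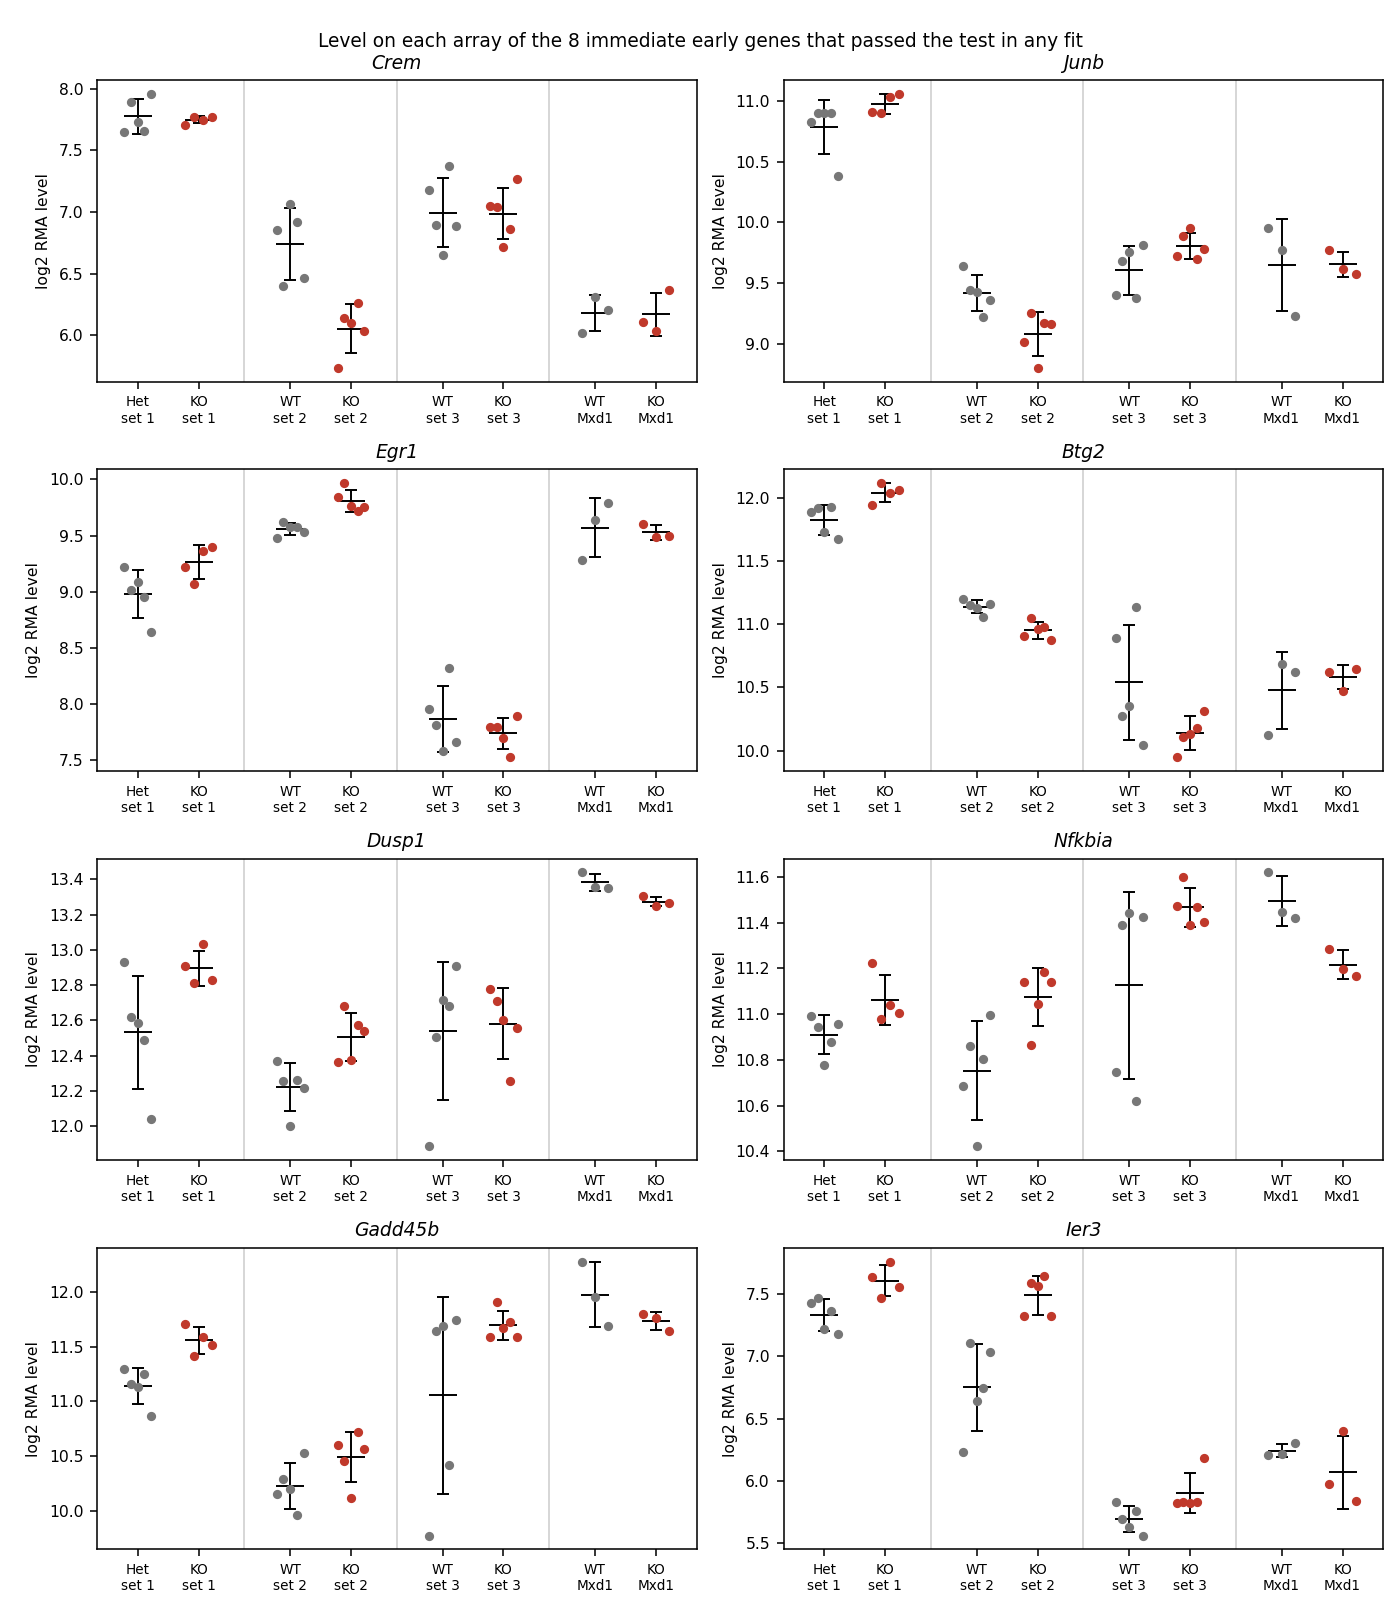
Log2 RMA level (y axis) on each array (points) of the 8 immediate early genes that passed the test in any fit, by group (x axis, with the 4 sets divided by grey lines); grey points are control arrays and red points arrays labelled KO, and bars are the mean ± SD. In set 2 the 5 KO points of Crem lie below all 5 WT points and those of Egr1 and Ier3 above them.

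In set 2, at steady state, single members differed between Mycl KO and WT cells in opposite directions. Crem and Junb, both bZIP factors, fell, and Egr1, Dusp1 and Ier3 rose. These 5 of 32 members were called by limma (Benjamini-Hochberg adjusted p under 0.05 over all 14012 genes tested), 3 higher and 2 lower, where 6.14% of all genes were called, 3.78% higher and 2.36% lower. Differences were above 0 for 15 members and below 0 for 17 (52.9% and 47.1% of all genes), with a median of -0.01 beside 0.01 over all genes tested. At an unadjusted p under 0.05 the members numbered 9 higher and 5 lower, against 12.7% and 8.56% of all genes.

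Crem encodes cAMP-responsive activators and the repressor ICER. Its level was 6.85, 6.40, 7.06, 6.92 and 6.46 on the WT arrays and 5.73, 6.14, 6.10, 6.26 and 6.03 on the KO arrays. All KO arrays lay below all WT arrays, and Crem fell by 0.69 ± 0.12 (SE; adjusted p = 0.0057). Junb, the AP-1 subunit that often restrains Jun, had 9.64, 9.45, 9.43, 9.22 and 9.36 in WT and 9.02, 9.25, 8.80, 9.18 and 9.16 in KO cells. The groups overlapped through the fourth WT array, and Junb fell by 0.34 ± 0.09 (adjusted p = 0.0358). The other AP-1 subunits lay between -0.28 (Fosl2, adjusted p = 0.172) and 0.15 (Jund, 0.178), and Jun, the partner of Fos proteins, had 11.67, 11.60, 11.21, 11.49 and 11.44 in WT and 11.30, 11.48, 11.53, 11.72 and 11.67 in KO cells, a difference of 0.06 ± 0.09 with overlap. Atf3 (-0.09) and Maff (-0.06) did not pass either.

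Egr1, a zinc finger factor induced through serum response factor, had 9.47, 9.62, 9.57, 9.58 and 9.53 in WT and 9.84, 9.97, 9.76, 9.72 and 9.76 in KO cells. The groups did not overlap, and Egr1 rose by 0.26 ± 0.06 (adjusted p = 0.0205). Egr2, the related factor, had 11.38, 11.58, 11.77, 11.43 and 11.47 in WT and 11.12, 11.59, 11.35, 11.54 and 11.33 in KO cells, and its difference of -0.14 ± 0.09 did not pass (adjusted p = 0.416), nor did that of Egr3 at 0.22 (0.161). The EGR genes therefore lay on both sides of 0. Of the orphan nuclear receptors, Nr4a3 had 9.52, 9.52, 9.71, 9.44 and 9.45 in WT and 9.15, 9.55, 9.15, 9.40 and 9.29 in KO cells, a difference of -0.22 ± 0.08 (adjusted p = 0.123). Klf6 was nearly level, with 11.30, 11.22, 11.09, 11.23 and 11.31 against 11.16, 11.28, 11.11, 11.30 and 11.26, and 0 of the 3 KLF genes passed (2 of them below 0).

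Among the genes of feedback and mRNA decay, Dusp1 had 12.37, 12.26, 12.002, 12.27 and 12.22 in WT and 12.37, 12.68, 12.38, 12.57 and 12.54 in KO cells, and rose by 0.29 ± 0.08 (adjusted p = 0.0424), with the lowest KO array level with the highest WT array. It missed the threshold without a filter (0.0542) and with arrays centred on the median (0.0526). Nfkbia had 10.68, 10.86, 10.42, 10.80 and 11.00 against 11.14, 10.87, 11.04, 11.18 and 11.14, a difference of 0.32 ± 0.09 (adjusted p = 0.0555). Gadd45b, a stress protein that acts on MAP kinase cascades, had 10.15, 10.29, 10.20, 9.97 and 10.53 against 10.60, 10.45, 10.12, 10.72 and 10.56 (0.26 ± 0.11, adjusted p = 0.183). Both overlapped between the groups. In contrast, Btg2, an antiproliferative protein that recruits the deadenylase complex, had 11.20, 11.15, 11.13, 11.06 and 11.16 in WT and 10.90, 11.05, 10.96, 10.98 and 10.88 in KO cells. All KO arrays were below all WT arrays, by 0.19 on average (-0.19 ± 0.05, adjusted p = 0.0524), so Btg2 and Nfkbia lay just outside the threshold. Both passed with a filter at the 50th percentile, with array weights and with a trended robust variance (0.0303 to 0.0482), and Btg2 also after median centring (0.0331). Groups that do not overlap were found for 2 members in each direction (Egr1 and Ier3 higher, Crem and Btg2 lower), where 3.74% and 3% of all genes had them.

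Ier3, a stress-induced regulator of cell survival, had the largest difference of the members in set 2. It was 6.23, 7.11, 6.64, 6.74 and 7.03 in WT and 7.32, 7.59, 7.56, 7.64 and 7.32 in KO cells, without overlap. Ier3 rose by 0.73 ± 0.13 (1.66-fold; adjusted p = 0.0057). The other 5 genes of its group lay between -0.18 (Rhob) and 0.19 (Ier2) and did not pass. Crem and Ier3 kept their calls whichever array was left out, while Egr1 lost its call without WT array 1 (adjusted p = 0.0595), Junb without KO array 1, 3 or 5 or WT array 1, 2 or 3 (up to 0.0978), and Dusp1 without KO array 2, 4 or 5 or WT array 2, 3, 4 or 5 (up to 0.0961). Without KO array 5 or WT array 1, 2 or 3, the members called numbered 3, and with all 8 groups in 1 fit only Crem and Ier3 passed. Under the other alternatives, which kept all arrays, 4 to 7 members passed. Of the heat shock genes, which warm digestion also induces, 12 of 14 lay below 0 in set 2 (median -0.19) and Hspd1 fell by 0.43. Of 18 cDC1 markers 6 rose and 1 fell, and of 12 monocyte and macrophage markers 2 rose and 2 fell, among them Cd14, which fell by 1.42. Their part in the members' differences was not tested.

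**Figure D2:**
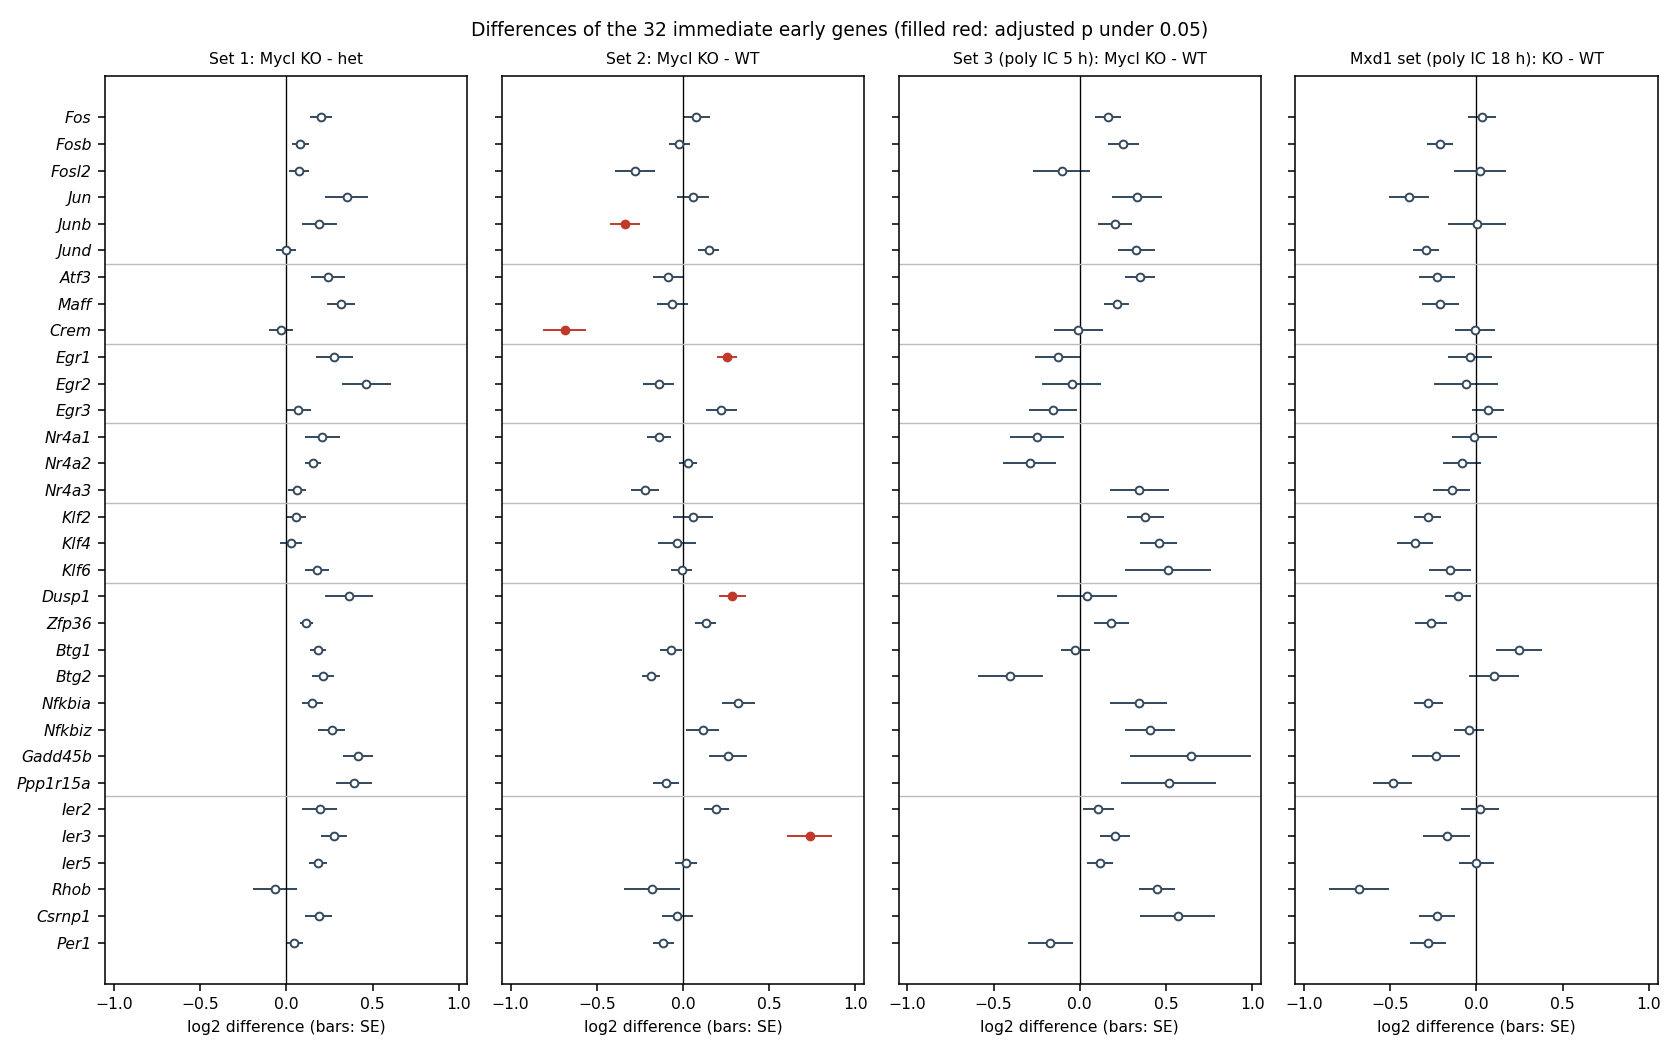
Log2 difference, KO minus control (x axis), of the 32 immediate early genes (rows, grouped by family) in the 4 comparisons (panels); points are limma estimates, bars their SE, and filled red points passed an adjusted p under 0.05. In set 1, 29 of 32 points lie above 0, in set 2 they lie on both sides, and in the Mxd1 set 25 lie below 0.

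In set 1, where Mycl KO cells were set against heterozygous cells, nearly all members leaned one way without any of them passing the test. Differences were above 0 for 29 of 32 members, where 51.3% of all 14023 genes tested lay above 0, and the median was 0.19 beside 0.00. Limma called 0 members (0.0214% of all genes were called, none of them higher), and 19 members had an unadjusted p under 0.05, all of them higher, against 5.75% of all genes. In 9 members all KO arrays lay above all heterozygous arrays (Maff, Egr2, Nr4a1, Nr4a2, Zfp36, Btg2, Gadd45b, Ier5 and Csrnp1), against 1.74% of all genes. All 8 genes of feedback and mRNA decay lay above 0 with an unadjusted p under 0.05 (median 0.24), while the KLF genes had a median of 0.06.

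Gadd45b had the lowest adjusted p of the members. Its level was 11.30, 11.16, 11.13, 11.25 and 10.87 on the heterozygous arrays and 11.71, 11.42, 11.59 and 11.51 on the KO arrays, which lay above all of them, with a difference of 0.42 ± 0.09 (adjusted p = 0.128). Egr2 had 11.92, 11.62, 11.66, 11.74 and 11.05 against 12.13, 11.96, 12.02 and 12.14, the largest difference at 0.46 ± 0.14 (adjusted p = 0.223). Egr1 had 9.22, 9.01, 9.08, 8.95 and 8.64 against 9.22, 9.06, 9.36 and 9.40, with overlap (0.28 ± 0.11, adjusted p = 0.289). The heterozygous array at 11.05 and 8.64 in the EGR genes is array 5, which was also the lowest of its group in Jun and Dusp1.

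Jun had 10.63, 10.27, 10.16, 10.20 and 9.94 in heterozygous and 10.72, 10.33, 10.72 and 10.59 in KO cells (0.35 ± 0.12, adjusted p = 0.269). Dusp1 had 12.93, 12.62, 12.58, 12.49 and 12.04 against 12.91, 12.81, 13.03 and 12.83 (0.36 ± 0.14, adjusted p = 0.289). Junb had 10.83, 10.90, 10.90, 10.90 and 10.38 against 10.91, 10.90, 11.03 and 11.05, so that it lay above 0 here (0.19 ± 0.10, adjusted p = 0.418). The heterozygous and KO ranges overlapped for Jun and for Dusp1, for Dusp1 through heterozygous array 1, which had the highest value of its group. For Junb the ranges only met, the highest heterozygous and the lowest KO value both being 10.90.

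Btg2 had 11.89, 11.92, 11.73, 11.93 and 11.67 in heterozygous and 11.94, 12.12, 12.04 and 12.06 in KO cells, without overlap (0.21 ± 0.06, adjusted p = 0.223). Ier3 had 7.42, 7.46, 7.21, 7.36 and 7.18 against 7.64, 7.46, 7.76 and 7.56 (0.28 ± 0.08, adjusted p = 0.195), and Nfkbia 10.99, 10.94, 10.78, 10.88 and 10.96 against 11.22, 10.98, 11.04 and 11.00 (0.15 ± 0.06, adjusted p = 0.317). Their KO means were higher, with KO arrays inside the heterozygous range in both. Klf6 had 11.59, 11.38, 11.42, 11.44 and 11.28 against 11.74, 11.52, 11.51 and 11.63 (0.18 ± 0.07, adjusted p = 0.288). Nr4a3 had 11.20, 11.18, 11.14, 11.18 and 10.97 against 11.21, 11.21, 11.18 and 11.18 (0.06 ± 0.05, adjusted p = 0.596), and Crem, which fell in set 2, had 7.65, 7.90, 7.73, 7.66 and 7.96 against 7.71, 7.77, 7.74 and 7.77 (-0.03 ± 0.07, adjusted p = 0.849).

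Heterozygous array 1 was the highest of its group in 18 of 32 members, against 19.6% of all genes. With array 1 left out, 29 members lay above 0 with a median of 0.21. Heterozygous array 5 was the lowest of its group in 22 of 32 members, against 24.4% of all genes. Its mean over the members was -0.26 relative to the middle of the set, where the other heterozygous arrays had -0.10 to 0.02 and the KO arrays 0.05 to 0.11. Without it, 30 members lay above 0 with a median of 0.14, and 18 had an unadjusted p under 0.05, all higher, beside 51% and 5.69% of all genes in that fit. Its mean over 14 heat shock genes was also the lowest of the set, at -0.26 against -0.08 to 0.14 on the other 8 arrays. The heat shock genes had 9 of 14 differences above 0 with a median of 0.01 in set 1. The cDC1 markers lay above 0 in 17 of 18 genes (median 0.12; 15 of 18 without array 5), with a mean level over the list of 11.14 to 11.29 on heterozygous and 11.34 to 11.44 on KO arrays, and the part of either in the members' shift was not tested.

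**Figure D3:**
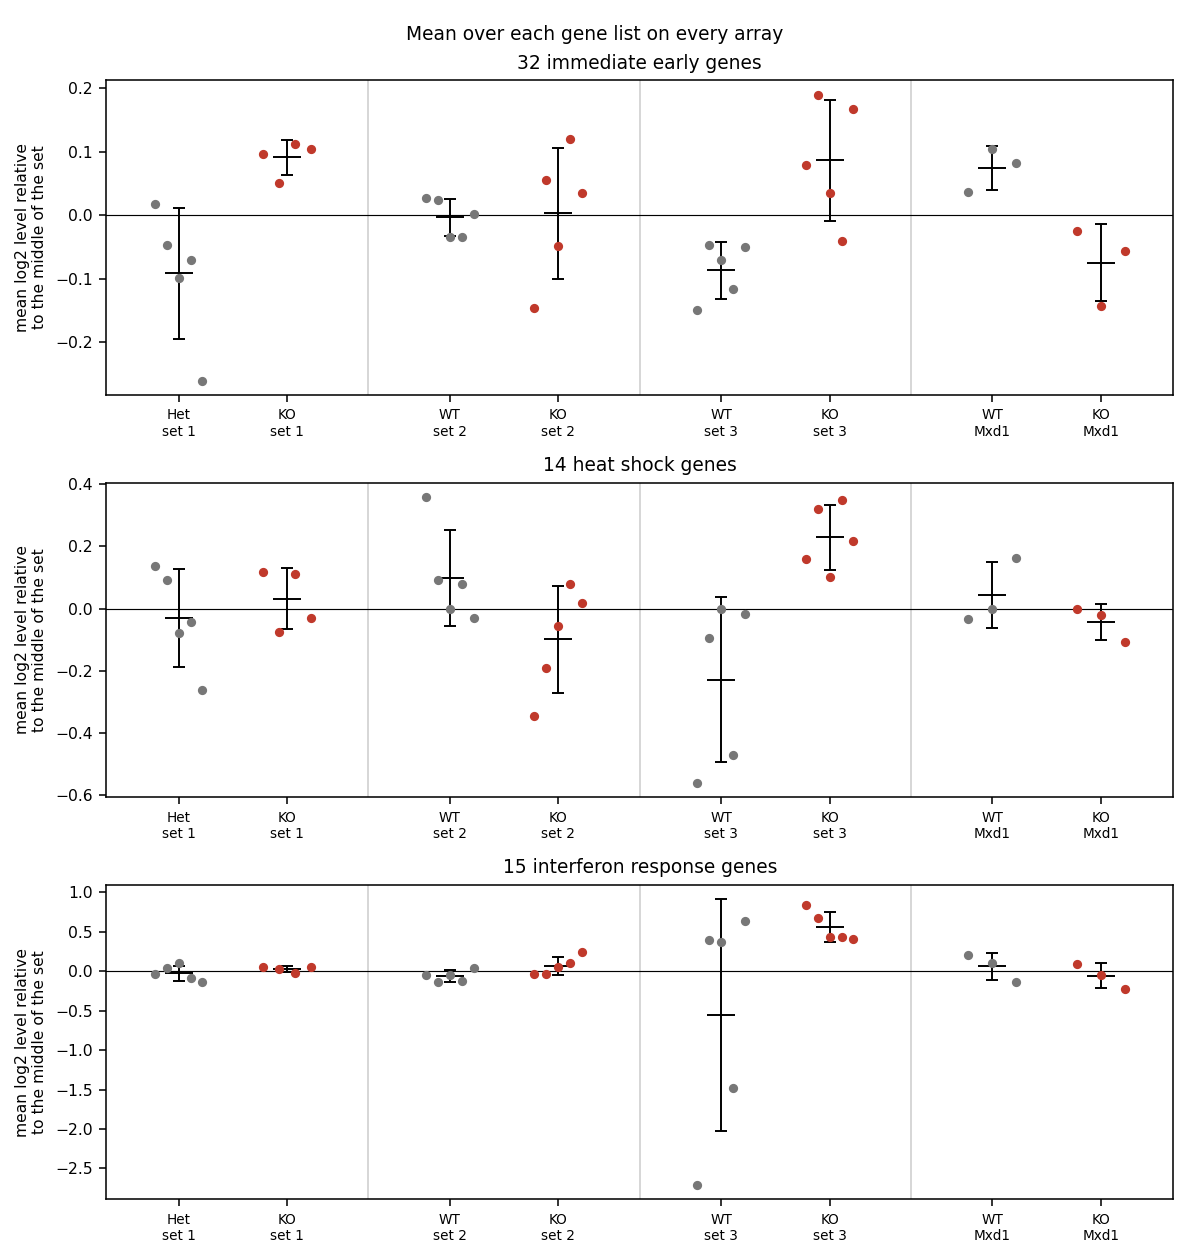
Mean log2 level, relative to the middle of the set (y axis), over the 32 immediate early genes, 14 heat shock genes and 15 interferon response genes (panels) on each array (points) by group (x axis); grey points are control arrays, red points arrays labelled KO, and bars are the mean ± SD over arrays. The lowest point of set 1 in the upper panel is heterozygous array 5 at -0.26, and the lowest points of set 3 in the bottom panel are WT arrays 1 and 4 at -2.71 and -1.48.

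In a fit of sets 1 and 2 together that allowed for the set, Mycl loss went with higher Ier3, Gadd45b, Dusp1, Egr1 and Nfkbia and lower Crem. These 6 of 32 members were called, 5 higher and 1 lower, where 4.43% of all 14639 genes were called, 2.01% higher and 2.43% lower. The differences were 0.52 ± 0.10 for Ier3 (adjusted p = 0.00334), 0.34 ± 0.08 for Gadd45b (0.0138), 0.32 ± 0.08 for Dusp1 (0.0215), 0.27 ± 0.06 for Egr1 (0.0111), 0.24 ± 0.06 for Nfkbia (0.0290) and -0.38 ± 0.10 for Crem (0.0383). Differences were above 0 in 25 of 32 members, beside 54% of all genes, among them the 3 EGR genes and the genes of feedback and mRNA decay, where Btg2 was the lowest at 0.00. Gadd45b and Nfkbia passed in neither set by itself. Lower Crem was seen in set 2 (-0.69), while set 1 had -0.03 ± 0.07. Crem lost its call without heterozygous array 2, any of the set 2 KO arrays or set 2 WT array 1, 3 or 4 (adjusted p up to 0.0856), and also with array weights (-0.23, adjusted p = 0.168) and after quantile normalization (0.0566). Nfkbia lost its call without set 1 KO array 1, set 2 KO array 1, 4 or 5 or set 2 WT array 1 (up to 0.0620). With all 8 groups in 1 fit only Ier3 kept its call, the other 5 having adjusted p-values of 0.0938 to 0.449.

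The KO effects of the steady-state sets, whose control genotypes differ (heterozygous in set 1, WT in set 2), were then tested against each other. Btg2 and Crem differed between the sets, both with the higher value in set 1, where 1.01% of all 14639 genes were called. For Btg2 the set 1 effect exceeded that of set 2 by 0.40 ± 0.08 (adjusted p = 0.0221), with KO above heterozygous cells in set 1 and below WT cells in set 2. For Crem the difference was 0.66 ± 0.16 (adjusted p = 0.0472), with Crem near 0 in set 1 and lower in KO cells in set 2. Junb differed by 0.53 ± 0.14 and just missed the threshold (adjusted p = 0.0669). Neither call held with all 8 groups in 1 fit (0.501 for Btg2 and 0.170 for Crem), and that of Crem was also lost without a filter (0.0592). Btg2 also lost its call without set 1 KO array 2 or 3 or set 2 KO array 5 (up to 0.0635), and Crem in 14 of the 19 fits that left out 1 array: each set 1 KO array, heterozygous arrays 1 to 4, set 2 KO arrays 2, 3 and 5, and set 2 WT arrays 1, 3 and 4 (up to 0.104).

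**Figure D4:**
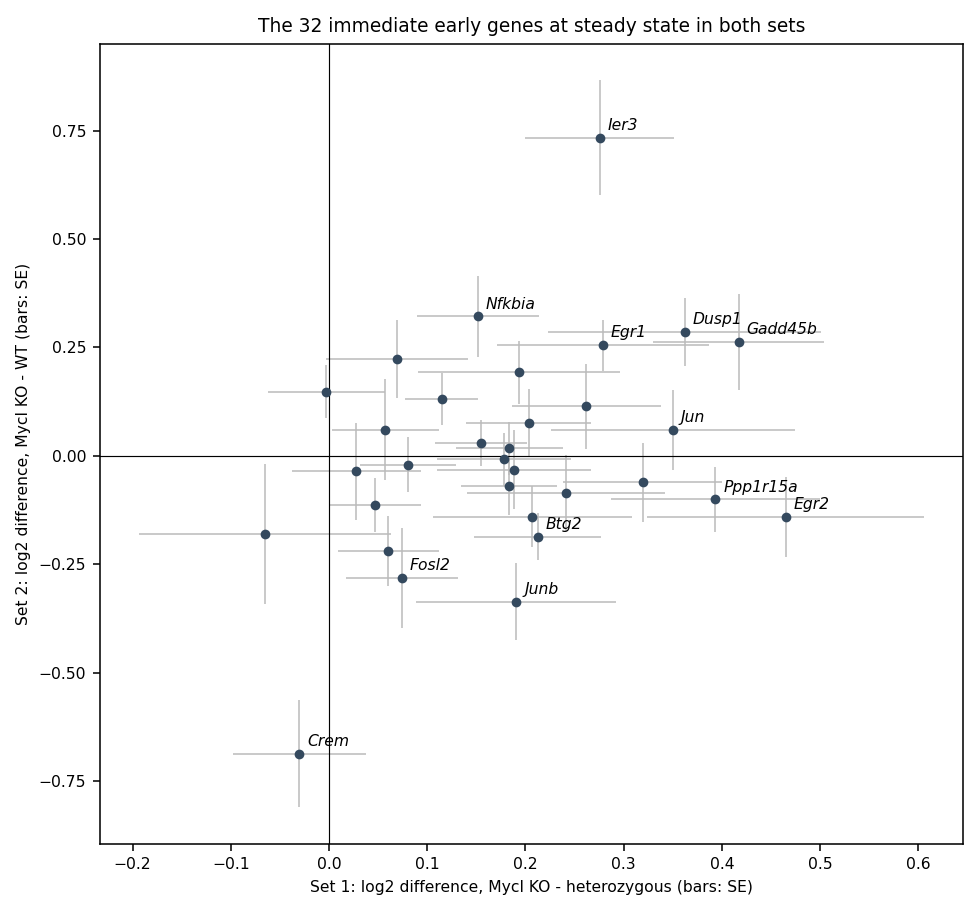
Log2 difference of each of the 32 immediate early genes in set 1, Mycl KO minus heterozygous (x axis), and in set 2, Mycl KO minus WT (y axis); bars are the SE of each estimate and 12 of the genes are named. Ier3 stands highest at 0.28 and 0.73, Crem lowest at -0.03 and -0.69, and Btg2 and Junb lie above 0 on the x axis and below 0 on the y axis.

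In set 3, 5 h after poly IC, 22 members lay higher in Mycl KO than in WT cells and 10 lower, beside 49.7% of all 14033 genes above 0, with a median of 0.20 beside 0.00. Limma called 0 members and 0% of all genes, while 11 members had an unadjusted p under 0.05, all of them higher, against 6.61% of all genes. In Atf3, Maff, Klf2, Klf4 and Rhob all KO arrays lay above all WT arrays, against 1.91% of all genes. The lowest adjusted p was 0.228, for Rhob. WT arrays 1 and 4 stood apart from the other 3 WT arrays in this set: their means over 15 interferon response genes, listed after the data were examined, were -2.71 and -1.48 relative to the middle of the set, against 0.37 to 0.64 in the other WT arrays and 0.41 to 0.84 in KO cells. Whether these arrays hold cells treated as labelled was not tested. The members' differences are therefore given with and without them, and limma called 0 members in either case. Without them the members that did not overlap were 9, the same 5 with Fosb, Jun, Ier2 and Ier3, beside 3.93% of all genes.

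Several members followed the interferon genes on WT arrays 1 and 4. Gadd45b had 9.77, 11.64, 11.69, 10.42 and 11.74 in WT and 11.59, 11.91, 11.67, 11.73 and 11.59 in KO cells, and its difference was 0.64 ± 0.35 with all arrays and 0.00 ± 0.08 without those arrays. Klf6, a zinc finger factor of stress responses, had 10.68, 11.65, 11.70, 10.45 and 11.79 in WT and 11.82, 11.88, 11.71, 11.64 and 11.76 in KO cells (0.51 ± 0.25, and 0.05 ± 0.08 without them). Nfkbia had 10.75, 11.39, 11.44, 10.62 and 11.43 in WT and 11.47, 11.60, 11.39, 11.47 and 11.40 in KO cells (0.34 ± 0.17, and 0.05 ± 0.07 without them). In all 3 genes arrays 1 and 4 were the lowest of the WT group, and the remaining WT arrays lay near the KO range. Ppp1r15a, which restores translation after stress by dephosphorylating eIF2alpha, went from 0.52 to 0.04 and Nr4a3 (8.78, 9.54, 9.63, 9.14 and 9.65 in WT, 9.89, 9.90, 9.39, 9.56 and 9.72 in KO cells) from 0.35 to 0.09.

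Other members were highest on the same arrays. Btg2 had 10.89, 10.27, 10.35, 11.14 and 10.04 in WT and 9.95, 10.11, 10.13, 10.18 and 10.32 in KO cells, and its difference went from -0.40 ± 0.19 to -0.09 ± 0.10 without arrays 1 and 4. Egr1 had 7.95, 7.81, 7.57, 8.32 and 7.66 against 7.79, 7.79, 7.69, 7.52 and 7.89, and Egr2 had 10.23, 9.87, 9.65, 10.48 and 9.50 against 9.75, 9.95, 10.00, 9.75 and 10.05. Both lay below 0 with all arrays (-0.13 and -0.05) and above 0 without those arrays (0.05 and 0.22). Crem, at 7.18, 6.89, 6.65, 7.37 and 6.88 against 7.05, 7.04, 6.72, 6.86 and 7.27, went from -0.01 ± 0.14 to 0.18 ± 0.11 in the same way. Nr4a1 and Nr4a2 went from -0.25 and -0.29 to 0.00 and -0.05.

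Yet other members kept a higher value in KO cells with and without WT arrays 1 and 4. Klf4, a regulator of myeloid differentiation, had 6.98, 6.84, 6.597, 6.45 and 6.754 in WT and 7.20, 7.05, 7.42, 7.06 and 7.18 in KO cells, without overlap. Its difference was 0.46 ± 0.11 with all arrays (adjusted p = 0.228) and 0.45 ± 0.09 without those arrays (adjusted p = 0.0930, the lowest of the members in that fit). Rhob, a short-lived GTPase of endosome traffic, had 6.64, 6.499, 6.57, 6.19 and 6.52 against 6.96, 7.21, 6.86, 6.74 and 6.87, again without overlap (0.45 ± 0.10, and 0.40 ± 0.10 without those arrays). Jun had 9.51, 9.002, 8.96, 9.01 and 9.03 in WT and 9.59, 9.81, 9.37, 9.12 and 9.28 in KO cells, so that only WT array 1 reached the KO range (0.33 ± 0.14, and 0.44 ± 0.13). Atf3, the stress-induced bZIP factor, had 0.35 and 0.34, and Fosb 0.25 and 0.36. Ier3 (5.83, 5.70, 5.63, 5.76 and 5.56 against 5.83, 5.84, 5.82, 5.83 and 6.19) went from 0.20 to 0.27. Junb and Dusp1 did not hold their differences in this way. Junb (9.41, 9.68, 9.75, 9.38 and 9.81 against 9.73, 9.89, 9.95, 9.70 and 9.78) went from 0.20 to 0.06. Dusp1 (11.89, 12.51, 12.72, 12.68 and 12.91 against 12.78, 12.71, 12.60, 12.26 and 12.56) changed sign, from 0.04 to -0.13.

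Without WT arrays 1 and 4, 28 of 32 members lay above 0 with a median of 0.12, and 12 had an unadjusted p under 0.05, all higher, beside 53% and 5.5% of all genes in that fit. With the library labelled KO array 3, whose Mycl level was nearer to WT than to the other KO arrays, left out as well, 27 lay above 0, the median was 0.17 and 13 had an unadjusted p under 0.05, beside 51.6% and 5.57% of all genes. Heat shock genes moved with the members here: 13 of 14 lay above 0 (median 0.46), 11 of them with an unadjusted p under 0.05, and their mean relative to the set was -0.56 to 0.00 on WT arrays and 0.10 to 0.35 on KO arrays. In the fit without WT arrays 1 and 4, 14 of 14 heat shock genes lay above 0 (median 0.22), 8 of them with an unadjusted p under 0.05, and with KO array 3 left out too Hspb1, a small heat shock protein, rose by 0.54 (adjusted p = 0.0389). The cDC1 markers lay below 0 in 13 of 18 genes, with mean levels of 10.10 to 10.69 on WT and 10.10 to 10.27 on KO arrays, and without WT arrays 1 and 4 in 8 of 18. The part of either in the members' shift was not tested. The KO effects of sets 3 and 2 were also tested against each other. No member passed (0.0205% of all 14665 genes were called); at an unadjusted p under 0.05, 9 members had the higher effect in set 3 and 3 the lower, against 5.13% and 7.84% of all genes. Without WT arrays 1 and 4 Crem passed, with an effect higher in set 3 by 0.87 (adjusted p = 0.0460), where 0.276% of all genes were called. In that fit 11 members had the higher effect in set 3 and 3 the lower at an unadjusted p under 0.05, beside 4.93% and 5.85% of all genes. Without the library labelled KO array 3 as well, the members numbered 10 and 2, beside 4.84% and 5.83%, and Crem passed again (0.93, adjusted p = 0.0295).

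**Figure D5:**
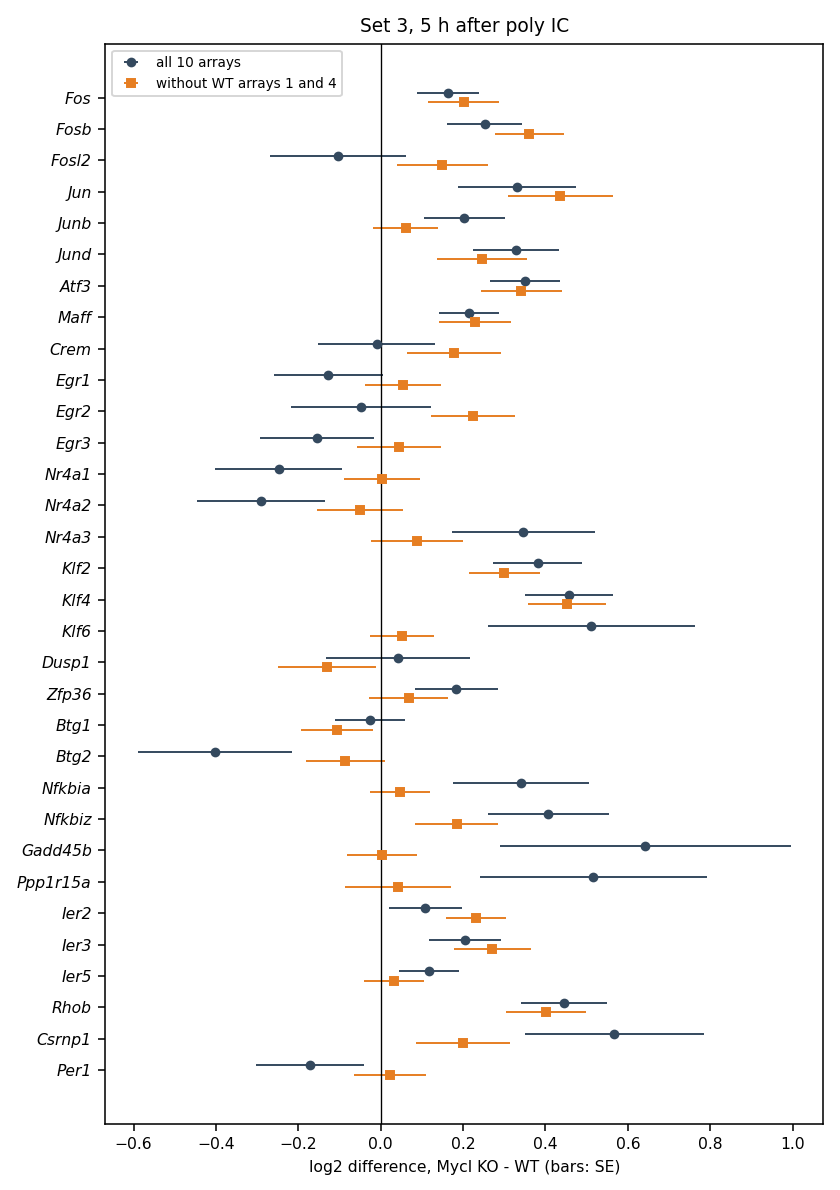
Log2 difference, Mycl KO minus WT, 5 h after poly IC (x axis) of the 32 immediate early genes (rows); circles are estimates from all 10 arrays, squares those without WT arrays 1 and 4, and bars the SE. Gadd45b moved from 0.64 to 0.00 and Klf6 from 0.51 to 0.05, while Klf4 had 0.46 and 0.45.

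In the Mxd1 set, 18 h after poly IC, most members lay lower in the libraries labelled Mxd1 KO. Differences were below 0 for 25 of 32 members, beside 50.6% of all 14080 genes tested, with a median of -0.15 beside 0.00. Limma called 0 members (0.071% of all genes were called), and 10 members had an unadjusted p under 0.05, all of them lower, against 6.37% of all genes. In 13 members all 3 arrays labelled KO lay below all 3 WT arrays, against 10.8% of all genes: Fosb, Jun, Jund, Atf3, Klf2, Klf4, Dusp1, Zfp36, Nfkbia, Ppp1r15a, Rhob, Csrnp1 and Per1.

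Rhob had the largest difference, with 8.43, 8.37 and 9.10 in WT and 7.96, 7.89 and 7.998 in libraries labelled KO (-0.68 ± 0.18, adjusted p = 0.190). Ppp1r15a had the lowest adjusted p (-0.49 ± 0.11, adjusted p = 0.162) and was the 1 member that passed when WT array 2 was left out (-0.59, adjusted p = 0.0341); in that fit 568 genes were called in all, against 10. Jun had 10.95, 10.69 and 11.05 against 10.60, 10.34 and 10.58 (-0.39 ± 0.12, adjusted p = 0.212). Klf4 had 7.73, 7.58 and 7.43 against 7.36, 7.11 and 7.21 (-0.35 ± 0.10, adjusted p = 0.209), and Nfkbia 11.62, 11.45 and 11.42 against 11.29, 11.20 and 11.17 (-0.28 ± 0.09, adjusted p = 0.218). These groups did not overlap in any of the genes named here with their levels.

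Dusp1 had 13.44, 13.35 and 13.35 against 13.30, 13.25 and 13.27 without overlap (-0.11 ± 0.07, adjusted p = 0.50). The genes that follow overlapped between the groups. Gadd45b had 12.28, 11.95 and 11.69 against 11.80, 11.76 and 11.65 (-0.24 ± 0.14), Klf6 12.17, 12.07 and 11.71 against 11.89, 11.75 and 11.84 (-0.15 ± 0.12), and Nr4a3 8.70, 8.93 and 8.77 against 8.73, 8.46 and 8.78 (-0.14 ± 0.11). Egr1 had 9.28, 9.63 and 9.79 against 9.61, 9.49 and 9.49 (-0.04 ± 0.13), and Egr2 9.71, 10.46 and 10.45 against 10.18, 10.05 and 10.19 (-0.06 ± 0.19). Junb had 9.95, 9.77 and 9.23 against 9.77, 9.62 and 9.58 (0.00 ± 0.17), and Btg2 10.13, 10.69 and 10.62 against 10.62, 10.47 and 10.65 (0.10 ± 0.15). Crem had 6.02, 6.31 and 6.20 against 6.11, 6.03 and 6.37 (-0.01 ± 0.11), and Ier3 6.21, 6.22 and 6.31 against 5.97, 6.40 and 5.84 (-0.17 ± 0.14). In the EGR genes and Btg2 WT array 1 was the lowest of the WT arrays, and in Junb WT array 3 was.

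Of the heat shock genes Hspa1a, the inducible HSP70, fell by 1.56 in the libraries labelled Mxd1 KO (adjusted p = 0.0389), while 8 of 14 lay below 0 with a median of -0.07. The cDC1 markers lay above 0 in 15 of 18 genes, with mean levels of 10.33 to 10.71 on WT and 10.73 to 10.78 on arrays labelled KO, and all 7 T and NK cell markers tested lay below 0, with mean levels over 13 named markers of 5.29 to 5.40 on WT and 5.17 to 5.23 on arrays labelled KO. Their part in the members' lower values was not tested.

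Other genes of the same pathway were read from lists made with earlier results of these data known. Of 33 further immediate early genes tested in set 2, 5 rose and 0 fell, where 3.78% of all genes rose and 2.36% fell. The largest rises were those of Myc, the factor that drives entry into the cell cycle (1.18, adjusted p = 7.85e-05), Txnip, an inhibitor of thioredoxin (0.55, 0.0136), Ptgs2, which makes prostaglandins (0.52, 0.0239), and Dusp6, the ERK phosphatase (0.47, 0.0257). Set 1 did not share all of these rises. In the test of set 1 minus set 2, limma called 2 of the 33 genes lower and 0 higher, where 1.01% of all genes were called. They were Myc (-1.19, adjusted p = 0.00324) and Klf10 (-0.66, 0.0310), which had also risen in set 2. In set 1 (32 of them tested), set 3 and the Mxd1 set 0 passed in limma's test, with 10, 13 and 1 higher and 0, 0 and 9 lower at an unadjusted p under 0.05, and medians of 0.07, 0.27 and -0.19. Of all genes 5.75%, 6.61% and 9.51% were higher and 8.45%, 7.58% and 6.37% lower at that p. Without WT arrays 1 and 4 of set 3, 9 were higher (median 0.13) and Arrdc3, an arrestin domain protein, passed at 0.61 (adjusted p = 0.0278); without the library labelled KO array 3 too, 4 passed (Arrdc3, Klf10, Plk2 and Txnip). Of 26 upstream kinases and factors, 3 rose and 0 fell in set 2: Elk3, a ternary complex factor at serum response elements (0.43), Mef2c, a MADS box factor (0.41), and Rps6ka5, a kinase of histone H3 and CREB (0.29). For Mef2c alone of the 26 the KO effect differed between the steady-state sets, being lower in set 1 (-0.69, limma adjusted p = 0.0255). Of 13 further bZIP genes of the AP-1 family, Jdp2, which represses AP-1 targets, fell by 0.38 in set 2 and Batf3, the factor that cDC1 require, rose by 0.27. In each of the other 3 comparisons limma called 0 of both lists, with 2 or 3 of the kinases and factors and 1 or 2 of the bZIP genes at an unadjusted p under 0.05, beside 14.2%, 14.2% and 15.9% of all genes in sets 1 and 3 and the Mxd1 set. Without WT arrays 1 and 4 of set 3 those counts were 4 of 25 and 1 of 13, and 0 passed.

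Across the 3 Mycl comparisons, 11 members lay above 0 in all and 1, Crem, below 0 in all, with Crem close to 0 in sets 1 and 3, where 18% of the 13176 genes tested in all 3 lay above 0 throughout and 17.7% below. Crem lay above 0 in set 3 without WT arrays 1 and 4 (0.18). Sets differ in normalization, so their levels are set side by side without a test. Ordered from set 1 through set 3 to the Mxd1 set, Crem levels spanned 7.65 to 7.96, 5.73 to 7.06, 6.65 to 7.37 and 6.02 to 6.37. Ier3 levels spanned 7.18 to 7.76, 6.23 to 7.64, 5.56 to 6.19 and 5.84 to 6.40 in that order. Jun, Nr4a3 and Klf4 lie on chromosome 4 with Mycl, at 27.9, 74.95 and 67.5 Mb from it (GRCm38.p6).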

How the data were processed

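Expression was measured on 35 arrays in 8 groups. The deposited values are log2 levels of 35556 transcript clusters, which the authors made with Affymetrix Expression Console and RMA, per the submitters' processing notes, with the versions not given in the sources used here. Pairs of arrays shared on average 1987 exactly equal values in set 1, 14.7 in set 2, 13.6 in set 3 and 30.8 in the Mxd1 set. Pairs from different sets shared 0.207, so the 4 sets were taken as normalized separately. Tied values are thus more frequent in set 1 than in the other sets. The number of arrays limits the precision. Of the clusters, 21789 had 1 symbol in the platform annotation, and a gene with several clusters was read from the one with the highest mean.

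Genes that reached the 30th percentile of named clusters on enough arrays to fill the smaller group were fitted with limma 3.58.1 in R 4.3.3 (lmFit and eBayes, two-sided, Benjamini-Hochberg over all genes tested, threshold 0.05), checked on simulated data. The members and lists were chosen with earlier results of these data known. Full levels are given for members called in any fit and, in the AP-1, EGR, NR4A and KLF groups, for the member with the largest difference; Klf4 and Rhob were added after their values were seen. The printed promoter stretches were limited to called members, and the leave-out of set 3 arrays was added, after seeing the data. Promoters come from RefSeq (GRCm38.p6).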

Additional observations from a re-analysis of the deposited data

Results flagged for a closer look

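In 6 of the 78 group levels examined, the gap between 1 array and its nearest neighbour, divided by the range of the group, was above Dixon's 95% critical value, a threshold that about 1 in 20 groups passes by chance. In heterozygous array 5 of set 1, Junb was at 10.38 (10.83 to 10.90 on the other arrays), Nr4a3 at 10.97 (11.14 to 11.20) and Mycl itself at 9.65 (9.85 to 9.93). In set 3, Jun was at 9.51 on WT array 1 (8.96 to 9.03 on the other WT arrays), Ier3 at 6.19 on KO array 5 (5.82 to 5.84), and Mycl at 8.87 on the library labelled KO array 3 (5.52 to 6.14).

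Differences between the KO effects of the steady-state sets were flagged for Btg2 (0.40, set 1 minus set 2), Crem (0.66) and Mycl (1.15, the KO level being less far below the control in set 1). The heterozygous controls of set 1 and the WT controls of set 2 had overlapping Mycl levels, while the KO levels were higher in set 1. Array medians over all clusters were also higher in set 1 than in set 2. The part of this scale in the Mycl difference was not tested. Btg2 was also flagged because all KO arrays lay above all controls in set 1 (difference 0.21) and below all controls in set 2 (-0.19).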

How the results depend on the processing

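Each choice was changed alone: the filter, the test's variance model, array weights, the normalization, the groups in the fit and the arrays. The medians of the members kept their sign in sets 1 and 3 and in the Mxd1 set, at 0.14 to 0.22, 0.15 to 0.24 and -0.21 to -0.15, and lay between -0.04 and 0.02 in set 2. Genes called in set 1 (3 as reported) numbered 5 with a filter at the 50th percentile, 141 with array weights and 15 after median centring. In set 2 (861) they numbered 358 with all 8 groups in 1 fit. In set 3 (0) they numbered 1 without a filter, 1910 with all 8 groups, 72 with weights, 10 without WT arrays 1 and 4, and 63 without KO array 3 as well. In the Mxd1 set (10) they numbered 235 with all 8 groups and 18 with weights or with centring, and over sets 1 and 2 together (649) 95 with all 8 groups. For set 1 minus set 2 (148) they numbered 15 with all 8 groups and 584 with weights. For set 3 minus set 2 (3) they numbered 6 with the 50th percentile filter, 181 with all 8 groups, 74 with weights, 8 after quantile normalization, 9 with a trended robust variance, and 41 and 51 without the set 3 arrays. Members called numbered 5 in set 1 with weights (Btg1, Gadd45b, Ier3, Maff and Ppp1r15a), 2 in set 2, 10 in set 3 and 1 over sets 1 and 2 with all 8 groups. For set 1 minus set 2 they numbered 1 without a filter, 0 with all 8 groups and 6 with weights, and for set 3 minus set 2 they numbered 1 with all 8 groups and 1 without either choice of set 3 arrays. The fit with all 8 groups shares the spread of set 3 with other groups, among them less variable ones. The cause of the shifts in these counts was not tested.

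Signs turned in differences near 0. Crem in set 1 became 0.026 with weights, 0.015 after quantile normalization and 0.0087 after centring; Klf6 in set 2 became 0.0061 and 0.031 under the first 2 of these. In set 3 Crem became 0.12, 0.054 and 0.029 under the 3, and with weights Egr2 became 0.093 and Dusp1 -0.053. Without WT arrays 1 and 4, and then without KO array 3 too, Crem became 0.18 and 0.25, Egr1 0.055 and 0.066, Egr2 0.22 and 0.20, and Dusp1 -0.13 and -0.13. In the Mxd1 set Junb became -0.015, -0.012 and -0.053 under the same 3, and Crem 0.010 after quantile normalization.

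With 1 array left out at a time, the number of genes called was 1 to 7 (set 1), 408 to 1007 (set 2), 0 to 2 (set 3) and 3 to 568 (Mxd1 set), then 433 to 854 over sets 1 and 2, 31 to 317 for set 1 minus set 2 and 1 to 30 for set 3 minus set 2. Members called numbered 3 to 7 in set 2, 0 to 1 in the Mxd1 set, 4 to 7 over sets 1 and 2 and 0 to 2 for set 1 minus set 2. Signs turned for Crem in set 1 (-0.063 to 0.015), for Klf6 (-0.044 to 0.021) and Jun (-0.0094 to 0.12) in set 2, and for Crem (-0.096 to 0.085), Egr2 (-0.16 to 0.085) and Dusp1 (-0.12 to 0.13) in set 3. In the Mxd1 set they turned for Crem (-0.11 to 0.059), Junb (-0.21 to 0.15), Egr1 (-0.18 to 0.072), Egr2 (-0.31 to 0.062) and Btg2 (-0.071 to 0.21). Members above 0 there (7) numbered 4 to 11, and 3 with weights or centring.

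Same-numbered arrays correlated best with their own number in 4 of 17 pairs, so the numbers were not taken to pair the arrays. With the replicate block, genes called numbered 1 in set 1, 1 in set 3, 16 in the Mxd1 set and 30 for set 1 minus set 2, where 0 members were called (adjusted p = 0.0731 for Crem and 0.101 for Btg2); Crem in set 1 became 0.015. Over sets 1 and 2 together Crem lost its call (-0.38, adjusted p = 0.0949), and in set 2 Nfkbia gained one (0.0474).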

Other observations

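Within groups, after each group's mean was subtracted, the correlations between members over the 35 arrays differed from family to family. The median pairwise Pearson r was 0.70 among the 3 EGR genes, 0.44 among the 8 genes of feedback and mRNA decay, 0.38 among the KLF genes, and -0.21 among the NR4A genes, beside 0.14 over all 32 members. It was not computed for sets of other genes, so whether these values are particular to the families was not tested. Maff (0.66), Dusp1 (0.65) and Atf3 (0.65) followed the mean of the members most closely, and Btg2 (0.05) least. Each member is itself part of that mean, which raises its r, while genes outside the list are not. Among tested genes outside the list, Ccl4, a chemokine, had the highest correlation with that mean (0.73), followed by Tent5c (0.69), a poly(A) polymerase, and Rab11fip1 (0.64), a protein of endosome recycling. These are descriptions over arrays that were taken as normalized together within each set. The median SD of the members was largest in set 3 WT cells (0.29), so arrays of that group weigh more in each r. The WT arrays of set 3 with low interferon response genes are among the 35, and the correlations were not repeated without them.

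The median SD of the members between arrays of a group was above that of all genes tested in each of the 8 groups, most clearly in set 3 WT cells. The median SD of the 32 members was 0.29 in set 3 WT cells, against 0.16 over all genes tested, with Gadd45b at 0.90, and 26 members had an SD above the median of all genes. The WT arrays with low interferon response genes belong to that group, and the SD was not computed without them. In the other 7 groups it was 0.09 to 0.15, against 0.07 to 0.14, and 19 to 24 members lay above the median of all genes. As many of all genes lie above their median as below it. The count of 19, found in both groups of set 1 and in the Mxd1 WT group, is near that share.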
